A study of Homo sapiens with 4 samples.

Results

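The 10 genes described here encode sensors of foreign or misplaced RNA and the proteins that work directly with them. They are the cytosolic RIG-I-like receptors DDX58 (RIG-I), IFIH1 (MDA5) and DHX58 (LGP2), their mitochondrial adaptor MAVS, and the RIG-I ubiquitin ligase RNF135. TLR3 and its adaptor TICAM1 (TRIF), the RNA-activated kinase EIF2AK2 (PKR), the RNA editing enzyme ADAR and the antiviral RNA-binding protein ZC3HAV1 (ZAP) complete the list. The genes were taken by symbol from the deposited table of 28278 genes. All 10 were found, and all 10 were among the 17271 genes with enough counts to be tested.

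RNA sequencing was done on total RNA of A549 cells, a human lung adenocarcinoma cell line. Lentivirus was used to make a stable line overexpressing CBX7 (2 libraries, labelled OE_CBX7, genotype CBX7 overexpression) and a stable line with a control construct (2 libraries, labelled Control, genotype WT). CBX7 is a chromobox subunit of a Polycomb repressive complex. The sources used here do not state the promoter of the construct or the number of clones behind each line, and no untransduced A549 library was analysed here. The labels do not say whether the libraries of a line were cultured separately. The p-values reflect how far these libraries vary, and that variation may be technical.

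Cells recognise viral RNA by features that their own RNA mostly lacks, such as long base-paired stretches and an unprocessed 5′ triphosphate. RIG-I and MDA5 bind such RNA in the cytosol and pass the signal to MAVS on mitochondria, while TLR3 binds it in endosomes and signals through TRIF. Both routes activate the kinase TBK1 and the transcription factors IRF3 and NF-kB, which switch on interferon genes. Interferon in turn raises the transcription of many sensors, among them RIG-I, MDA5, LGP2, TLR3 and PKR, so that the sensing system is part of the programme it starts.

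Library totals were 90765502 and 88861255 estimated counts in CBX7 libraries 1 and 2, and 88091494 and 69877585 in control libraries 1 and 2. CPM (depth-normalised read count) scales each count to a common library size after adjustment with TMM, which aligns the bulk of genes between libraries. Means are given ± SD with n = 2 libraries per line. CBX7 itself was at 19.0 and 17.2 CPM in CBX7 libraries, against 8.0 and 8.74 CPM in control libraries (log2 fold change 1.11, SE 0.156, edgeR adjusted p = 0.000141). The count does not separate transcripts of the endogenous gene from any of the construct that were counted with them. The libraries of a line differed by more than sampling noise, with chi-square values per degree of freedom of 36.1 for the CBX7 line and 46.3 for the control line. The epithelial keratins KRT8 and KRT18 lay between 4550 and 6990 CPM in all 4 libraries, while EPCAM was at most 1.61, KRT19 at most 0.453 and CLDN4 at most 2.97 CPM. Of the 8 epithelial markers, MUC1 (log2 fold change -1.75, edgeR adjusted p = 0.000383) and KRT7 (-0.29, edgeR adjusted p = 0.0342) were lower in the CBX7 line, 6 were not called, and the list summed to 12200 to 13300 CPM in CBX7 libraries, against 13200 to 13400 CPM in control libraries. The lung markers NKX2-1, SFTPA1, SFTPA2, SFTPB, SFTPC, SFTPD, NAPSA and SCGB1A1 reached at most 1.27 CPM, although the labels give lung as the tissue. AGER lay between 2.04 and 3.27 CPM and ABCA3 between 65.9 and 100 CPM. Of 5 tested lung markers, NKX2-1 and ABCA3 were higher in the CBX7 line (edgeR adjusted p = 0.0489 and 0.0445) and 3 were not called.

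Sequence upstream of the genes is shown first, because 3 of the 8 genes with a promoter window carry a motif of the type bound by interferon regulatory factors. RefSeq windows (build GRCh38.p14, 250 bases before to 50 bases after the annotated start) were matched for 8 of the 10 genes, those other than DHX58 and RNF135. Each window is written 5′ to 3′ on the strand of its gene, and capitals mark the matches. The windows are chr9:32526147-32526446 for DDX58 (minus strand, named RIGI in RefSeq), chr2:162318635-162318934 for IFIH1 (minus strand), chr4:186068906-186069205 for TLR3 (plus strand) and chr2:37156931-37157230 for EIF2AK2 (minus strand). That of MAVS, chr20:3846584-3846883 (plus strand), is shown as a window without a match.
DDX58: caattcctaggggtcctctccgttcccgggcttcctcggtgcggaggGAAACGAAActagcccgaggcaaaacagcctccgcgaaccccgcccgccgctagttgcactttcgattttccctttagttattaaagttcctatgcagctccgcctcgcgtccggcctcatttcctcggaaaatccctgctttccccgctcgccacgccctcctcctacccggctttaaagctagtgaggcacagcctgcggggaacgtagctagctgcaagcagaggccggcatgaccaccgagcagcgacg
IFIH1: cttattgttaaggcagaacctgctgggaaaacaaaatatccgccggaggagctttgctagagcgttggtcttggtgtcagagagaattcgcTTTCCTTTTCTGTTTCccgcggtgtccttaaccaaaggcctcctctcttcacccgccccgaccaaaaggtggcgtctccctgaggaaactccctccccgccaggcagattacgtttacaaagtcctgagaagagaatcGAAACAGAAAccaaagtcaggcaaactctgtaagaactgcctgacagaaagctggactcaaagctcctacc
TLR3: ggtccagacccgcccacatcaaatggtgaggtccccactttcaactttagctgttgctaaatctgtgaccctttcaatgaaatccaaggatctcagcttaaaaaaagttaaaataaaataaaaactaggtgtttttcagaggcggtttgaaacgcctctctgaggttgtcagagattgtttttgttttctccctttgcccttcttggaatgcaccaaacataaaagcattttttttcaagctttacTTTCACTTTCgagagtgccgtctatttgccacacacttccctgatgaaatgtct
EIF2AK2: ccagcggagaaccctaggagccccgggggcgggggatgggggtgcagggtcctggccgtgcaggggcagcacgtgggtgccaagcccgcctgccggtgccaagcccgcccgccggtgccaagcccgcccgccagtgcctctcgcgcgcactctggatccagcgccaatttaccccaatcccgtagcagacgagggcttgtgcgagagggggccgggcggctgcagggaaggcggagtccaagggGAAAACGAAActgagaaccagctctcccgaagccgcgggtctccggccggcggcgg
MAVS: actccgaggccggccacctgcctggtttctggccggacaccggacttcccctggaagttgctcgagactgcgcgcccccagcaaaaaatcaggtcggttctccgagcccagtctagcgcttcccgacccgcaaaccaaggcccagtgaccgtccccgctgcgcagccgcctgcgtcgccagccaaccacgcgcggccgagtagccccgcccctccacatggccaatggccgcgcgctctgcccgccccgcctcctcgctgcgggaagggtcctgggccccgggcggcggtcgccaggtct

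The motif GAAANNGAAA, the core of the interferon-stimulated response element, was searched on both strands. It matched in 3 of the 8 genes, IFIH1, TLR3 and EIF2AK2, which is 37.5%, against 4.38% of the 27305 genes with a window. IFIH1 had 3 matches, of which 1 on the gene's strand began 21 bases before the start and 2 on the opposite strand, which share 4 bases, began 159 and 153 bases before it. The match in EIF2AK2 began 6 bases before the start and that in TLR3, on the opposite strand, 4 bases before it. A form with 1 base less between the repeats, GAAANGAAA, was added after these windows had been read. It matched 203 bases before the start of DDX58 and in none of the other 7 genes, against 3.87% of all genes with a window. Either form was in 4 of the 8 genes, against 7.83% of all genes with a window. Neither form was in the windows of MAVS, TICAM1, ADAR (3 windows) or ZC3HAV1. Of these, MAVS was higher in the CBX7 line, but TICAM1, ADAR and ZC3HAV1 were lower (log2 fold changes -1.66, -1.74 and -1.50). Whether the motif goes with the change was not tested. Of 35 interferon-stimulated genes of the list described further on that have a window, 24 (68.6%) held GAAANNGAAA. A match is a string of letters and not evidence of a bound factor, and no match describes this window only.

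Of the 10 genes, 8 were lower in the CBX7 line, MAVS was higher and RNF135 was not called. A gene was called at an edgeR adjusted p under 0.05, over all 17271 genes tested. Among all tested genes 13.9% were called lower and 10.5% were called higher. With library totals in place of TMM, 2033 genes were lower and 2487 were higher, against 2399 lower and 1809 higher with TMM, but the calls of the 10 genes were the same. The median log2 fold change was -1.96 over the 10 genes and 0 over all tested genes. In 9 of the 10 genes the ranges of the lines did not overlap, a pattern found in 62.8% of tested genes, so it says little on its own. RNA was taken from bulk cultures, so fewer cells with a transcript and less of it per cell cannot be told apart.

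**Figure D1:**
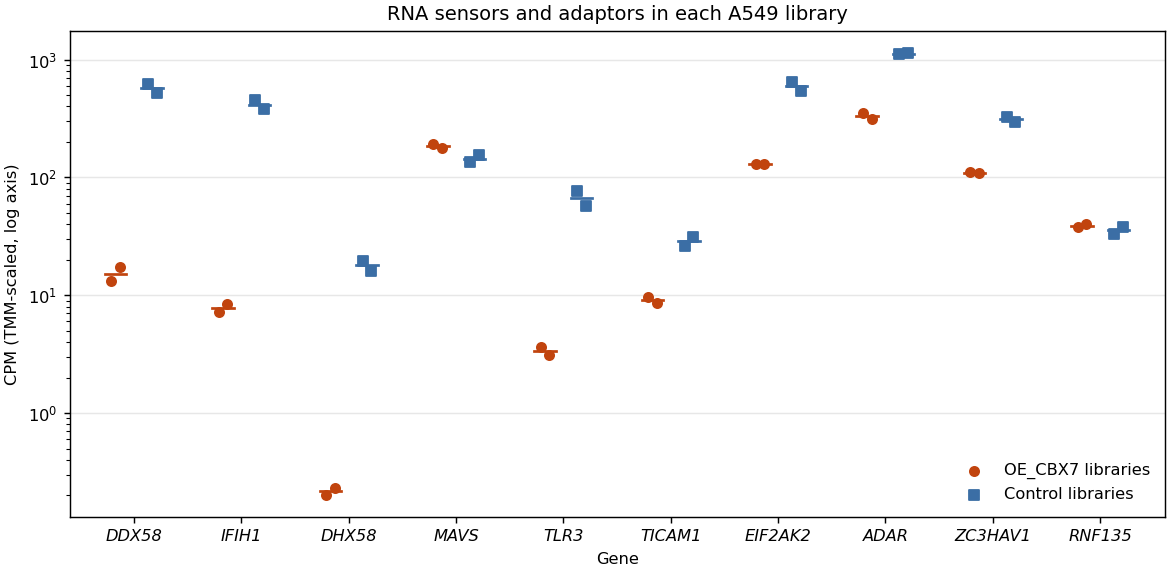
CPM of each of the 10 genes in each library on a log axis, with CBX7 libraries as circles, control libraries as squares and bars at the means of 2 libraries. DDX58, IFIH1, DHX58 and TLR3 are more than 10-fold apart between lines, while MAVS and RNF135 lie at similar heights in both.

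The RIG-I-like receptors fell furthest. DDX58, whose product binds short RNA with a 5′ triphosphate, was at 13.1 and 17.4 CPM in CBX7 libraries, against 624 and 523 CPM in control libraries. Every control library was far above every CBX7 library. The fall was 37.5-fold (log2 fold change -5.23, SE 0.157, adjusted p = 9.73e-11). It lay well outside the replicate spread, although CBX7 library 1 was at 0.753 times the level of CBX7 library 2. Of all tested genes, 1.02% had a lower log2 fold change. The gene lies on chromosome 9, 32455705 to 32526324 (GENCODE 29, GRCh38, minus strand).

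IFIH1, whose product MDA5 assembles into filaments on long base-paired RNA, was at 7.14 and 8.37 CPM in CBX7 libraries, against 451 and 380 CPM in control libraries. The lines were again far apart, with a 53.6-fold fall (log2 fold change -5.74, SE 0.137, adjusted p = 1.72e-12). DHX58 encodes LGP2, which has the helicase but no signalling domain and modulates the other receptors. Per length it was the scarcest of the 10 genes in both lines, and it had 19 and 21 counts in CBX7 libraries, against 1699 and 1108 counts in control libraries. Those counts correspond to 0.203 and 0.233 CPM in CBX7 libraries, against 19.7 and 16.2 CPM in control libraries. The fall of 82.1-fold (log2 fold change -6.36, SE 0.254, adjusted p = 2.16e-10) was the largest of the 10, and 0.851% of tested genes had a lower log2 fold change. The 95% intervals of the log2 fold change were -5.57 to -4.89 for DDX58, -6.04 to -5.45 for IFIH1 and -6.91 to -5.81 for DHX58, so that those of neighbouring genes overlap.

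MAVS, the adaptor on which RIG-I and MDA5 converge, did not follow its receptors. It was at 192 and 176 CPM in CBX7 libraries, against 134 and 155 CPM in control libraries. Both CBX7 libraries were above both control libraries, by a small margin. The rise was 1.27-fold (log2 fold change 0.35, 95% interval 0.12 to 0.57, adjusted p = 0.0283). It was not called without CBX7 library 1 (log2 fold change 0.28, adjusted p = 0.245) or without control library 1 (0.25, adjusted p = 0.146), so the call rested on those libraries. RNF135 (Riplet), which ubiquitinates RNA-bound RIG-I, was at 37.8 and 40.2 CPM in CBX7 libraries, against 33.0 and 37.9 CPM in control libraries. The lines overlapped (log2 fold change 0.14, adjusted p = 0.465), and the interval of -0.12 to 0.40 leaves room for a change of either sign.

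TLR3 and its adaptor were both lower, to different degrees. TLR3, the endosomal receptor of base-paired RNA, was at 3.64 and 3.12 CPM in CBX7 libraries, against 77.2 and 56.8 CPM in control libraries. It fell 19.8-fold (log2 fold change -4.31, SE 0.173, adjusted p = 2.26e-10), and control library 1 was 1.36 times as high as control library 2. TICAM1, which carries the TLR3 signal to TBK1 and to cell death kinases, was at 9.72 and 8.57 CPM in CBX7 libraries, against 26.4 and 31.4 CPM in control libraries. The lines did not overlap, and TICAM1 fell 3.16-fold (log2 fold change -1.66, SE 0.151, adjusted p = 2.19e-06). The 95% interval of TICAM1, -1.99 to -1.34, and that of TLR3, -4.68 to -3.94, do not overlap.

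The 3 RNA-binding effectors fell by smaller factors than the RIG-I-like receptors and TLR3. EIF2AK2 encodes PKR, which blocks translation by phosphorylating the initiation factor eIF2 when it binds base-paired RNA. It was at 131 and 129 CPM in CBX7 libraries, against 639 and 544 CPM in control libraries, a 4.56-fold fall (log2 fold change -2.19, SE 0.106, adjusted p = 2e-09). ADAR, which converts adenosine to inosine in base-paired RNA and so keeps cellular RNA from activating MDA5 and PKR, was lower too. It was at 353 and 315 CPM in CBX7 libraries, against 1110 and 1130 CPM in control libraries, a 3.34-fold fall (log2 fold change -1.74, SE 0.0995, adjusted p = 1.42e-08). ZC3HAV1 encodes ZAP, which binds CpG-rich RNA and directs its decay. It was at 111 and 109 CPM in CBX7 libraries, against 328 and 293 CPM in control libraries, a 2.82-fold fall (log2 fold change -1.50, SE 0.0979, adjusted p = 6.52e-08). In each of the 3 genes both CBX7 libraries were below both control libraries.

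A gene-level count does not separate isoforms. ADAR has a long interferon-inducible form and a short constitutive one, and ZC3HAV1 has a long and a short form, so which of them changed was not measured. EIF2AK2 shares 35 exonic bases, 0.325% of its exons, with GPATCH11 on the opposite strand, which was higher in the CBX7 line (log2 fold change 1.44). It shares a further 401 exonic bases, 3.73% of its exons, with a processed pseudogene on the opposite strand that is not listed in the count table. No gene of GENCODE 29 shares exonic bases with the other 9.

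**Figure D2:**
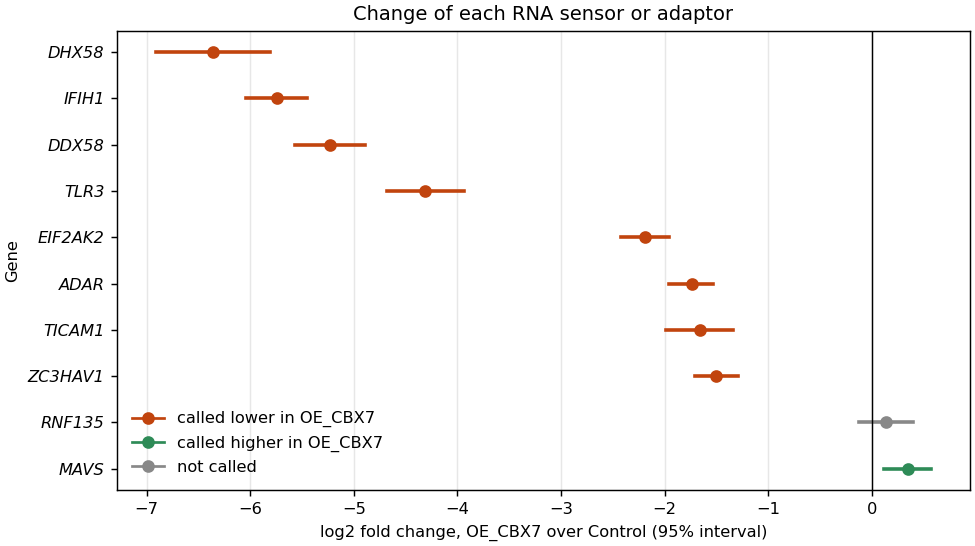
Log2 fold change of each gene, CBX7 line over control line, with its 95% interval from the edgeR fit on 2 libraries per line. DHX58, IFIH1, DDX58 and TLR3 lie between -6.36 and -4.31, EIF2AK2, ADAR, TICAM1 and ZC3HAV1 between -2.19 and -1.50, and RNF135 and MAVS just above 0.

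Levels of different genes were compared per length, as CPM per kilobase of the union of exons in GENCODE 29. The exons that A549 cells use may be fewer, which would raise a gene's level. In the CBX7 line the order was ADAR (34.5 ± 2.77 CPM per kilobase), MAVS (15.6 ± 0.961), ZC3HAV1 (13.4 ± 0.172), EIF2AK2 (12.1 ± 0.132), RNF135 (10.9 ± 0.474) and then DDX58 (3.50 ± 0.698). Below them came TICAM1 (3.42 ± 0.304 CPM per kilobase), IFIH1 (1.52 ± 0.170), TLR3 (0.503 ± 0.0547) and DHX58 (0.0567 ± 0.00552). DDX58 and TICAM1 overlapped between libraries there, and the other neighbours did not.

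In the control line the order was DDX58 (132 ± 16.4 CPM per kilobase), ADAR (116 ± 1.46), IFIH1 (81.3 ± 9.83), EIF2AK2 (55.0 ± 6.25), ZC3HAV1 (37.7 ± 3.01) and MAVS (12.3 ± 1.26). After these came TICAM1 (10.8 ± 1.32 CPM per kilobase), TLR3 (9.96 ± 2.15), RNF135 (9.90 ± 0.968) and DHX58 (4.67 ± 0.644). DDX58 and ADAR differed by less than the SD of DDX58, and libraries of MAVS overlapped with those of TICAM1, TICAM1 with TLR3, and TLR3 with RNF135. DDX58 thus ranked sixth in the CBX7 line, against first in the control line, and MAVS ranked second in the CBX7 line, against sixth in the control line.

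The balance of receptor to adaptor transcripts differed between the lines. The summed per-length level of DDX58 and IFIH1 was 0.271 and 0.376 times that of MAVS in CBX7 libraries, against 20.3 and 14.7 times in control libraries. TLR3 was at 0.149 and 0.145 times TICAM1 in CBX7 libraries, against 1.17 and 0.722 times in control libraries. DHX58 was at 0.0120 and 0.0107 times the sum of DDX58 and IFIH1 in CBX7 libraries, against 0.0222 and 0.0217 times in control libraries. These ratios describe 2 libraries per line, too few for an exact permutation test to reach 0.05, and carry no p.

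**Figure D3:**
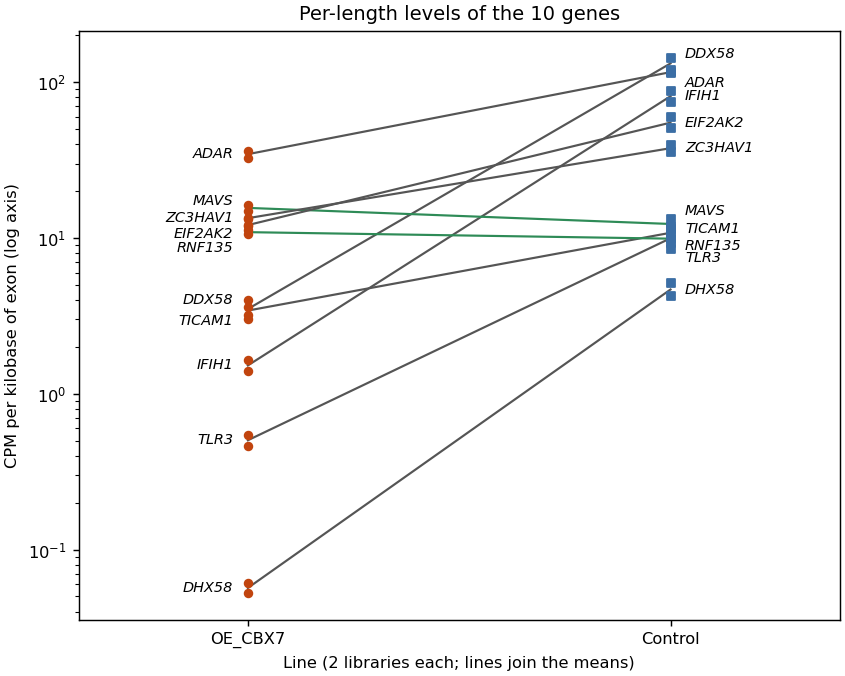
Per-length level (CPM per kilobase of exon, log axis) of each gene in the CBX7 line and the control line. Points are libraries and lines join the means. The line of MAVS crosses those of DDX58, IFIH1, EIF2AK2 and ZC3HAV1, and MAVS is second of 10 in the CBX7 line and sixth in the control line.

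Genes around the sensors were grouped in lists written from general knowledge, with the 10 genes left out. Earlier results of these data were known when the lists were written. The counts of each list are to be read beside the shares over all tested genes, 13.9% called lower and 10.5% called higher. Some genes, such as DDX60 and TRIM25, are shared between lists, so the list counts are not independent. Regulators of the RIG-I-like receptors (46 tested) were mixed: 16 were lower, 3 higher and 27 not called, with a median log2 fold change of -0.21. The nucleic acid sensor IFI16 was at 0.983 and 1.4 CPM in CBX7 libraries, against 136 and 120 CPM in control libraries (log2 fold change -6.75, adjusted p = 3.59e-12). The helicase DDX60, the regulator NLRC5 and the helicase-like RNA sensor ZNFX1 fell with log2 fold changes of -4.73, -3.91 and -2.76. The genes that were higher were RNF5, a ligase that degrades MAVS (log2 fold change 0.61, adjusted p = 0.00229), NLRX1, a mitochondrial NLR protein (0.48, adjusted p = 0.0201), and the phosphatase subunit PPP1CA (0.32, adjusted p = 0.0471). NLRX1 was not called when CBX7 library 1 (adjusted p = 0.231) or control library 1 (0.0873) was left out. PPP1CA was not called when CBX7 library 1 (adjusted p = 0.0921), CBX7 library 2 (0.215) or control library 1 (0.263) was left out. Without CBX7 library 1, only 1 regulator was higher.

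Signalling genes downstream of MAVS and TRIF were lower or not called: 19 of 32 tested fell, 13 were not called and 0 were higher, with a median log2 fold change of -0.45. Fewer were called lower when any single library was left out. In this list, and in the PKR and helicase lists given below, 0 genes were higher at an unadjusted edgeR p under 0.05, and 0 with DESeq2 or limma-voom. IFIT3, an interferon-induced protein that bridges MAVS and TBK1, was at 3.99 and 5.31 CPM in CBX7 libraries, against 1220 and 1080 CPM in control libraries. The autophagy receptor OPTN, the feedback regulator TRAFD1 and the kinase IKBKE fell with log2 fold changes of -2.37, -1.89 and -1.41. TBK1 itself was at 47.6 and 46.7 CPM in CBX7 libraries, against 78.5 and 67.4 CPM in control libraries (log2 fold change -0.63, adjusted p = 0.00117). IRF3, the factor it phosphorylates, was at 36.6 and 34.8 CPM in CBX7 libraries, against 36.6 and 31.0 CPM in control libraries (log2 fold change 0.08, adjusted p = 0.716). TBK1 and IRF3 were named after their values had been seen.

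Of 20 tested genes of the endosomal TLR pathway, 7 were lower, 1 was higher and 12 were not called (median log2 fold change -0.25); without control library 2 only 4 were lower. MYD88, the adaptor of most other Toll-like receptors, was at 40.8 and 39.7 CPM in CBX7 libraries, against 246 and 258 CPM in control libraries (log2 fold change -2.65, adjusted p = 1.69e-10). The protease CTSL, the ubiquitin ligase TRIM56 and WDFY1, which helps TLR3 recruit TRIF, fell with log2 fold changes of -1.12, -1.21 and -0.77. CD14 was higher at a low level, with 2.80 ± 0.403 CPM in the CBX7 line and 1.31 ± 0.0772 CPM in the control line (log2 fold change 1.10). Its call (adjusted p = 0.0299) was lost without any 1 of the 4 libraries, with adjusted p of 0.213 and 0.0544 without CBX7 libraries 1 and 2, and of 0.0997 and 0.0676 without control libraries 1 and 2.

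Around PKR, most genes were not called. Of 23 tested, 5 fell, 18 were not called and 0 were higher (median log2 fold change -0.08). Over all tested genes, 13.9% were lower and 10.5% were higher. Without CBX7 library 1 only 3 were lower, and without control library 2, 1 was higher. PPP1R15A (GADD34), which reverses eIF2 phosphorylation, was at 29.5 and 27.2 CPM in CBX7 libraries, against 310 and 285 CPM in control libraries (log2 fold change -3.39, adjusted p = 2.19e-11). DDIT3 (CHOP), a stress transcription factor downstream of eIF2 phosphorylation, fell with a log2 fold change of -3.51, and PPP1R15B and the eIF2 subunit EIF2S2 with -0.55 and -0.45. EIF2S2 was not called without CBX7 library 1 (adjusted p = 0.0566).

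Near ADAR, in a list of its family, of Z-RNA sensing and of RNA clearance, 10 of 19 tested genes were lower, 2 were higher and 7 were not called (median log2 fold change -0.28). SAMHD1, a nucleotide phosphohydrolase, was at 34.1 and 30.8 CPM in CBX7 libraries, against 342 and 299 CPM in control libraries (log2 fold change -3.30, adjusted p = 4.6e-11). PNPT1, a mitochondrial enzyme that degrades RNA, fell with a log2 fold change of -2.75, MLKL, the executor of necroptosis, with -1.92 and SIDT1, a transporter of base-paired RNA, with -2.54. STAU2 (log2 fold change 0.77, adjusted p = 0.00019) and SIDT2 (0.64, adjusted p = 0.00868) were the genes that were higher, and SIDT2 was not called without CBX7 library 1 (adjusted p = 0.141). Without CBX7 library 1 the only gene of the list that was higher was STAU2.

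Partners of ZAP and RNA decay factors included 11 lower, 0 higher and 16 not called genes among 27 tested (edgeR, median log2 fold change -0.23). An unadjusted edgeR p under 0.05 gave 2 higher genes, DESeq2 gave 0 and limma-voom gave 0. TRIM25, the ubiquitin ligase that ZAP needs and that also acts on RIG-I, was at 107 CPM in both CBX7 libraries, against 609 and 630 CPM in control libraries (log2 fold change -2.53, adjusted p = 1.4e-10). The ADP-ribosyltransferases PARP10, PARP14 and PARP12, the last a relative of ZAP, fell with log2 fold changes of -5.92, -4.0 and -3.99. Among other helicases that bind base-paired RNA, DDX60, described above, fell furthest: of 15 tested, 5 fell, 10 were not called and 0 were higher (median log2 fold change -0.23). DDX24, DHX9 and DDX3X fell with log2 fold changes of -0.56, -0.38 and -0.41. DHX9 lost its call when CBX7 library 2 was left out (adjusted p = 0.0957), and DDX3X when CBX7 library 2 (0.0916) or control library 1 (0.0868) was. Without control library 1, 3 of the helicases were lower, and without CBX7 library 2, 2 were.

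**Figure D4:**
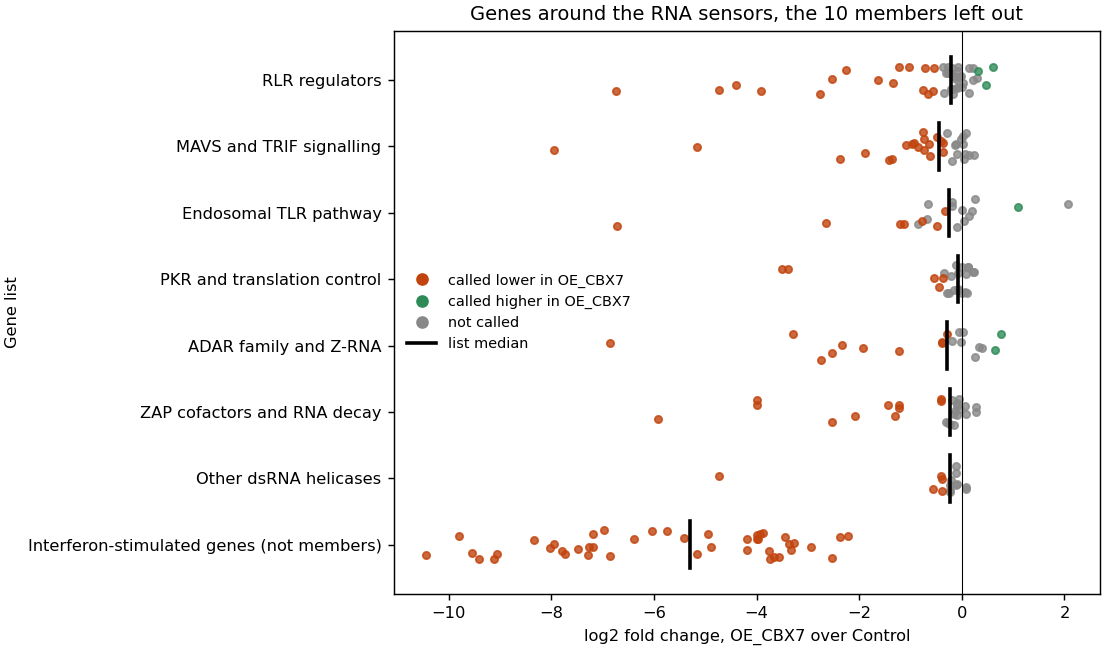
Log2 fold change, CBX7 line over control line, of each tested gene in 8 lists around the sensors, with the list median as a bar and calls at an edgeR adjusted p under 0.05 in colour. Medians of the 7 pathway lists lie between -0.45 and -0.08, and that of the interferon-stimulated genes is at -5.29.

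Interferon-stimulated genes other than the 10 were lower in 44 of 44 tested cases. Their median log2 fold change was -5.29, with a range of -10.44 to -2.21. With replicate number added to the fit, 38 were called lower, and the number also fell when either control library was left out. This list too was written with earlier results of these data known, so its counts and range are a description and not a test. The fitted changes of DDX58, IFIH1, DHX58 and TLR3 lay within that range, and those of EIF2AK2 (-2.19), ADAR, TICAM1 and ZC3HAV1 lay above its upper end. Some genes of the lists above stand in the interferon list too: IFIT3 and IRF7 in the signalling list, and PARP12 and PARP14 in the ZAP list. Only genes of this interferon list were counted, so further genes of the lists above may be interferon-stimulated as well. Of 7 tested interferon genes, 5 were lower and 2 were not called. IFNL1 had 0 counts in both CBX7 libraries, against 2697 and 1460 counts in control libraries, and IFNL2 likewise had 0, against 3483 and 2094 counts in control libraries. IFNL2 and IFNL3 are near-identical copies, so the split of reads between them is uncertain. IFNB1 had 31 and 0 counts in CBX7 libraries, against 2035 and 1196 counts in control libraries, and was not called (edgeR log2 fold change -6.93, adjusted p = 0.0831). The number of interferon genes called lower was 6 with DESeq2, 6 with limma-voom, 6 without CBX7 library 1 and 4 without control library 2. The share of the sensor changes that goes with interferon levels was not tested.

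Genes with the pattern most like DDX58 were sought by the distance between centred log2 CPM profiles over the 4 libraries. TXNIP (distance 0.200), IRF7 (0.308), BHLHE41 (0.316), TNF (0.326) and FOSB (0.349) were nearest. TXNIP was at 0.684 and 1.01 CPM in CBX7 libraries, against 35.4 and 25.7 CPM in control libraries. TNF had 0 counts in both CBX7 libraries, against 92 and 53 counts in control libraries, so its distance depends on the prior count of 2. For MAVS the nearest were RHBDL3 (0.0278), SLC66A2 (0.0317), SNRNP200 (0.0341), STAG3L2 (0.0396) and SUOX (0.0405). Of these 5 SNRNP200, a spliceosome helicase, was the 1 called, at 624 and 574 CPM in CBX7 libraries against 448 and 504 CPM in control libraries (log2 fold change 0.33, adjusted p = 0.0276). Like MAVS, it lost its call when CBX7 library 1 (adjusted p = 0.194) or control library 1 (0.153) was left out.

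Among markers of other cell types, the summed leukocyte list was lower in the CBX7 line, as the sensors were, although CD14, given above, was higher. The 12 leukocyte markers summed to 27.6 to 28.0 CPM in CBX7 libraries, against 166 to 172 CPM in control libraries. That sum was mostly CD68, at 23.6 CPM in both CBX7 libraries, against 158 and 165 CPM in control libraries. CD3D, CD3E and MS4A1 were at 0 in all libraries, and PTPRC and LYZ were at most 0.0961 CPM. The integrin subunit ITGAM was lower too, at 0.822 and 0.82 CPM in CBX7 libraries, against 6.13 and 4.59 CPM in control libraries (log2 fold change -2.70, edgeR adjusted p = 2.22e-05). The 10 fibroblast markers summed to 8.11 to 8.94 CPM in CBX7 libraries, against 7.65 to 9.28 CPM in control libraries. Of these the protease FAP was lower, at 0 and 0.0333 CPM in CBX7 libraries, against 1.66 and 0.938 CPM in control libraries (edgeR adjusted p = 0.000398). The 8 endothelial markers summed to 3.54 to 3.90 CPM in CBX7 libraries, against 1.07 to 1.67 CPM in control libraries. Of these CDH5 was higher (log2 fold change 1.73, edgeR adjusted p = 0.00868). It was at 2.69 and 3.12 CPM in CBX7 libraries, against 1.22 and 0.513 CPM in control libraries. The part of the cell type markers in the sensor changes was not tested.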

How the data were processed

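The gene annotation, library strandedness and the treatment of reads shared between genes are not stated in the labels. HISAT2 2.2.1, StringTie 2.2.1, DESeq2 and build hg38 were used per the submitters' processing notes, which give no roles. The authors deposited 1 estimated count per gene and library, keyed by symbol; all were whole numbers, so rounding changed 0 values. Whether a 0 is a failed estimate cannot be told from the counts.

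The CBX7 line was compared with the control line in edgeR 4.0.16 (R 4.3.3): filterByExpr, TMM, robust quasi-likelihood fit with group as the only term, and Benjamini-Hochberg adjustment over all tested genes. SEs and 95% intervals came from the fitted change, its F statistic and its degrees of freedom. Alternatives were RLE size factors, library totals, DESeq2 1.42.0, limma-voom (limma 3.58.1), no low-count filter, a mean count of 50 or more, a replicate block and leaving out each library. A floor of 3 counts per library was 0.0320 and 0.0333 CPM in CBX7 libraries and 0.0348 and 0.0440 CPM in control libraries.

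The 10 genes and the lists were chosen with earlier results of these data known. All 10 are named; in each list up to 4 called genes per direction with the smallest p are named, leaving out the interferon lists, and the 5 nearest profiles to DDX58 and MAVS. Other names were chosen after their values were seen.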

Additional observations from a re-analysis of the deposited data

How the results depend on the processing

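All 8 genes called lower kept direction and call under the 11 alternatives run, and RNF135 was not called in any. DDX58 ranged from -5.44 to -5.04, IFIH1 from -5.86 to -5.61, DHX58 from -6.48 to -6.21, TLR3 from -4.50 to -4.07, EIF2AK2 from -2.29 to -2.06, ADAR from -1.82 to -1.65, TICAM1 from -1.78 to -1.52 and ZC3HAV1 from -1.57 to -1.41 on the log2 scale. MAVS ranged from 0.25 to 0.47 with adjusted p of 0.00734 to 0.245, so with 1 library left out the number of the 10 genes called higher ran from 0 to 1. Over all tested genes, the number called higher ran from 1021 without CBX7 library 1 to 1790 without control library 2, and was 1121 without CBX7 library 2. Where a line was left with 1 library, that library was assumed to vary like the other line.

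Replicate numbers are shared between lines, but deviations of same-numbered libraries had a correlation of 0.0281, so they are not taken as pairs. With the replicate block 8 of the 10 genes were lower and 1 was higher, and 2503 of all tested genes were lower and 2100 higher; genes lower in the PKR list numbered 8, against 5 without the block. Of 198 alternative counts for the lists, 187 were within 1.5 times the count given and 11 were not. Scaling by library totals moved the median of all genes by 0.066. Intervals rest on 2 libraries per line, and the depth limits DHX58 most, at 19 and 21 counts in CBX7 libraries.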
